A study of Mus musculus with 3 samples.

Results

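The lysosome degrades what a microglial cell takes up, and 44 genes of its machinery were followed here, all but the cathepsins: 16 genes of the proton pump, 17 acid hydrolases, 8 membrane proteins and 3 soluble proteins that assist the enzymes. They were chosen by symbol from a list of lysosomal genes, and all 44 were among the 31053 genes of the deposited tables. Brain cells from 10-month-old mice were sorted for microglia (CD45lowSiglec-H+) and oligodendrocytes (CD45-O1+) and sequenced with a droplet method that counts the 3′ ends of single RNA molecules by unique molecular identifiers (UMIs). Each genotype was 1 library made from 3 pooled mice of a uniform C57BL/6J background: wild-type (*Wt*), *PLPmut* (homozygous) and *PLPtg* (hemizygous), which are mouse models of distinct genetic myelin defects. With 1 library per genotype there is no replicate check and no test: all intervals are 95% intervals that cover counting error only. Mice of either sex entered the study, and animals within a pool cannot be told apart.

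The lysosomal proton pump (V-ATPase) is a rotary machine whose cytosolic V1 sector splits ATP and whose membrane V0 sector passes protons into the lumen. The acid that it makes lets soluble hydrolases take apart lipids, sugars and proteins, while a coat of glycosylated membrane proteins lines the organelle and exports what is released. In microglia this machinery handles engulfed myelin, whose galactolipids and cholesterol need dedicated enzymes and carriers.

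Microglia were taken as cells in which *Ctss*, *Csf1r*, *C1qa*, *C1qb* and *Cx3cr1* together made up at least 1.5% of UMIs, which gave 12536 *Wt*, 9328 *PLPmut* and 11224 *PLPtg* cells. They were split at 0.1% of UMIs for *Cst7*, *Itgax*, *Lpl* and *Spp1*, genes of activated microglia, so that 108, 167 and 1755 cells were activated and 12428, 9161 and 9469 were not. Levels are UMIs per 1000000 UMIs of the group (CPM). A gene was counted as higher where its CPM was at least 25% above that of the other group, or as lower where it was at least 20% below (a log2 ratio of 0.32 either way), and the interval of the ratio excluded 1, among genes with a mean of at least 10 CPM over the 6 groups and at least 20 UMIs in the pair compared. Of the members, 43 passed this floor. The remaining one, *Atp6v0d2*, is described apart.

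The libraries held 68760898 to 77677489 UMIs, and shared 38 to 44 cell barcodes in pairs. Cells outside the microglia rule (587 to 1002 per library) were led by haemoglobin genes, and oligodendrocyte markers such as *Mbp* and *Mog*, although oligodendrocytes were sorted too, summed to only 165 to 1610.1 CPM there. Activated cells were shallower than the others in *Wt* (median 5057 against 6032.5 UMIs) and *PLPtg* (4492 against 5889) and deeper in *PLPmut* (7932 against 7290). Below 1000 UMIs a single UMI of the splitting genes is enough to call a cell activated, and 29.6% of the activated cells in *Wt*, 10.2% in *PLPmut* and 26.2% in *PLPtg* lay there. Genes outside the split that mark activation (*Apoe*, *Gpnmb*, *Lgals3* and others) summed to 2995 to 5533 CPM in non-activated and 16098 to 37896 CPM in activated cells. Homeostatic genes (*P2ry12*, *Tmem119* and others) summed to 9172 to 9940 and 3527 to 4140 CPM. Markers of border macrophages summed to 10.8 to 20.5 CPM in non-activated and 14.0 to 17.0 CPM in activated cells, with *Pf4*, *Cd163*, *Lyve1*, *F13a1* and *Cbr2* at 0 and *Mrc1* at 14.0 CPM (6.19 in non-activated cells) in activated *Wt* cells. *Pf4* stood at 7.17 and 9.33 CPM in non-activated and activated *PLPtg* cells. Choroid plexus markers, mostly *Ttr*, summed to 381 and 1040.1 CPM in non-activated and activated *Wt* cells, 157 and 38.3 CPM in *PLPmut* and 339 and 583 CPM in *PLPtg*. Endothelial markers summed to 26.1 and 46.6, 22.9 and 44.7, and 26.7 and 84.8 CPM in the same order, of which *Flt1* made up 34.2, 34.7 and 78.5 CPM in activated cells, with *Cldn5* and *Ly6c1* at 0 there. The part of these markers in the results was not tested. A list of genes induced by tissue dissociation was lower in activated cells (6578 to 9628 CPM against 12164 to 13465 CPM), and its part in the results was not tested.

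In every library, more lysosomal genes were higher than lower in activated microglia. Of the 43 tested, 15 were higher and 2 lower in *Wt*, where 11.1% of all tested genes were higher and 14.6% lower. In *PLPmut* 17 were higher and 0 lower, against 9.94% and 22.5% of all genes. In *PLPtg* 18 were higher and 3 lower, against 11.1% and 46.2%. The median log2 ratio of the members was 0.23, 0.19 and 0.17 in the 3 libraries, while the median of all tested genes was −0.09 in *Wt*, −0.17 in *PLPmut* and −0.29 in *PLPtg*, so the split between higher and lower depends on the scaling. With log2 ratios centred on the median of all genes, 30 members were higher and 0 lower in *PLPtg*. Centring raises the ratio of every gene there, so the shares of all genes above are no background for these 2 counts. The share of all genes under centring is not given, so the 2 counts show only that the members move with the scaling. By the rule, 12 members were higher in all 3 libraries (27.9% of those tested, against 6.16% of all genes) and 0 were lower in all 3 (9.33% of all genes). The shares of all genes were not matched for level. Genes near 10 CPM gave few UMIs in activated *Wt* cells (9 UMIs for *Atp6v0c* at 14.0 CPM) and so could seldom meet the rule there.

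**Figure D1:**
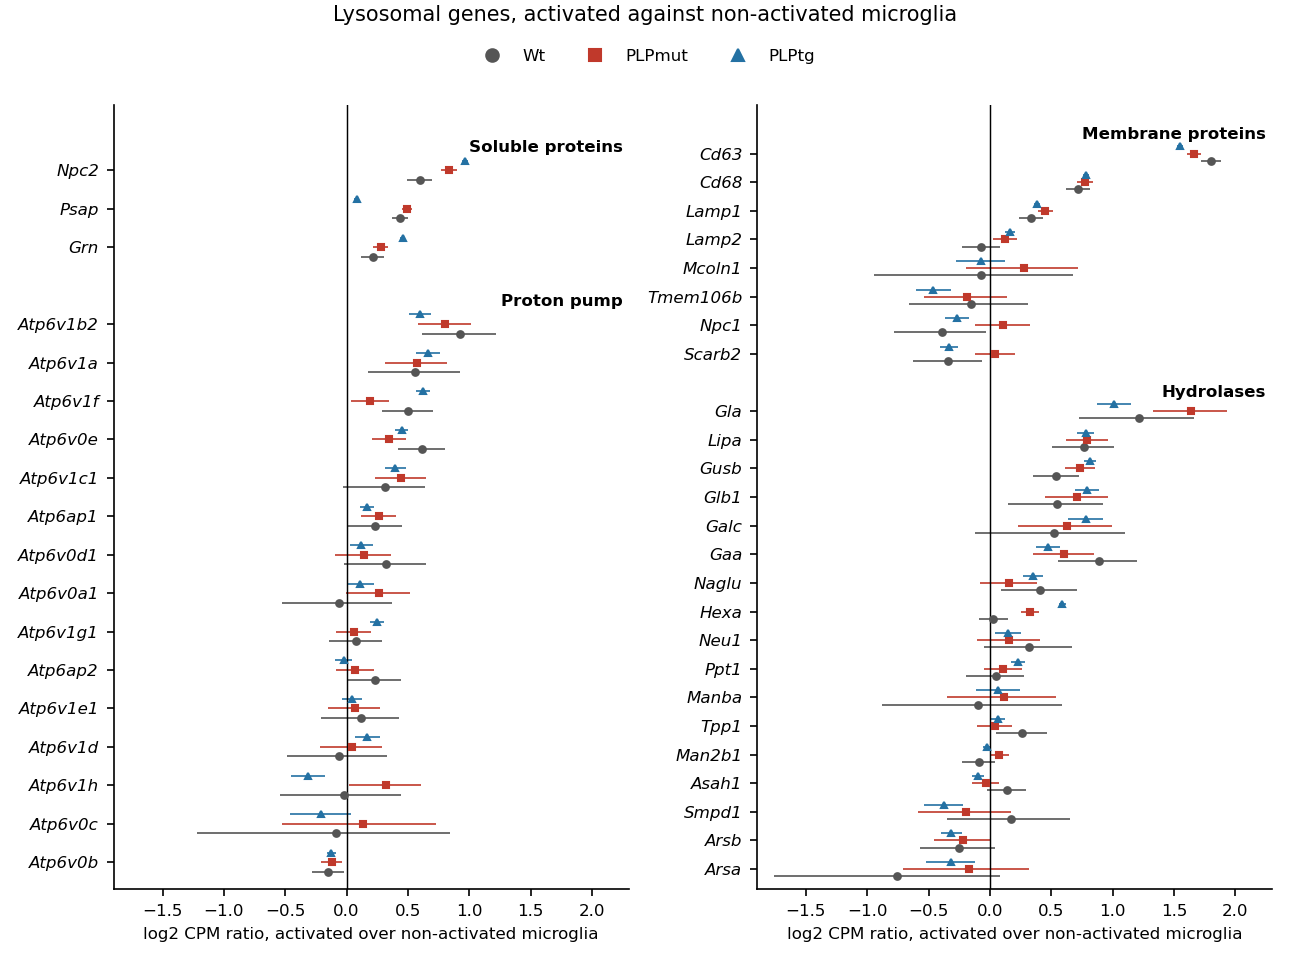
Log2 ratio of CPM in activated over non-activated microglia for the 43 tested lysosomal genes (x axis), by role, in *Wt* (grey circles), *PLPmut* (red squares) and *PLPtg* (blue triangles), with 95% counting intervals as bars. *Cd63* lies farthest to the right (1.55 to 1.80), 12 genes are higher in all 3 libraries, and *Scarb2*, *Smpd1* and *Arsa* are among the genes at or left of 0 in *PLPtg*.

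The ATP-splitting core of the pump was higher in activated cells, and most of the rest of the pump was not. *Atp6v1a*, the catalytic V1 subunit, stood at 64.2, 64.8 and 68.0 CPM in non-activated *Wt*, *PLPmut* and *PLPtg* cells and at 94.7, 96.4 and 108 CPM in activated cells. *Atp6v1b2*, which alternates with it in the V1 ring, stood at 78.5, 76.8 and 81.4 CPM and at 149, 134 and 123 CPM. Both were thus higher in each activated group than in any non-activated group, with ratios of 1.47 (1.13 to 1.90), 1.49 (1.246 to 1.77) and 1.59 (1.48 to 1.70) for *Atp6v1a* and 1.90 (1.53 to 2.32), 1.74 (1.501 to 2.02) and 1.51 (1.42 to 1.61) for *Atp6v1b2*. For *Atp6v1a* in *Wt* this turned on the cells taken, since with microglia at 3% of UMIs its log2 ratio was −0.011 in place of 0.56. *Atp6v0e*, a small V0 subunit, was the third pump gene higher in all libraries, at 229.9, 235 and 230.0 CPM against 352, 299 and 314 CPM. *Atp6v1c1*, which helps V1 hold to V0, was higher in *PLPmut* and *PLPtg*, at ratios of 1.36 and 1.32, and had a ratio of 1.24 (0.977 to 1.56) in *Wt*. *Atp6v1f*, of the central rotor, met the rule in *Wt* (1.41) and *PLPtg* (1.54) and not in *PLPmut* (1.14).

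The other tested pump genes were nearer to their non-activated level. *Atp6v1h*, a regulatory V1 subunit, was the one gene whose ratio lay on opposite sides of 1 with both intervals clear of it, at 1.251 (1.02 to 1.53) in *PLPmut*, where it met the rule, and 0.804 (0.728 to 0.886) in *PLPtg*, where it did not. *Atp6v0b*, a subunit of the proton-carrying ring, was slightly below 1 in each library (0.902, 0.919 and 0.917), which falls short of the rule. For *Atp6v1d*, *Atp6v1e1*, *Atp6v1g1*, *Atp6v0a1*, *Atp6v0c*, *Atp6v0d1*, *Atp6ap1* and *Atp6ap2*, ratios ran from 0.863 to 1.251, and none met the rule in any library. *Atp6v0c*, which encodes the main ring subunit, gave only 14.0 to 17.8 CPM, and its annotated processed pseudogenes are outside the deposited gene list, so its count is uncertain. Summed over its 16 genes, the pump took 2644 to 2781 CPM in non-activated and 2984 to 3066 CPM in activated cells.

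*Atp6v0d2*, an alternative V0 subunit that is abundant in osteoclasts, was seen among microglia mainly in activated cells of both myelin mutants. It gave 17 UMIs in the 167 activated *PLPmut* cells and 111 UMIs in the 1755 activated *PLPtg* cells, or 12.1 CPM (7.02 to 19.3) and 10.8 CPM (8.87 to 12.99). In activated *Wt* cells it gave 0 UMIs, which allows up to 4.66 CPM at 3 UMIs. Non-activated cells held 1, 4 and 12 UMIs in *Wt*, *PLPmut* and *PLPtg*, at most 0.217 CPM. The activated level was 213 times the non-activated one in *PLPmut* (69.4 to 869.6). In *PLPtg* it was 49.7 times (27.4 to 99.2). With each cell thinned to 2000 UMIs, *Atp6v0d2* was seen in 5 of 143 activated *PLPmut* cells (3.497%) and 25 of 1122 activated *PLPtg* cells (2.23%), against 0.0239% and 0.0269% of non-activated cells. In *Wt* it was seen in 0 of 67 activated cells, which allows a share of up to 4.48%. A *Wt* share like that of the mutants was thus not detectable in these thinned cells. Over all UMIs of activated cells, the *Wt* interval reached 5.73 CPM, under the intervals of both mutants, which cover counting error only. Without thinning the shares were 5.39% and 3.87% in the activated mutant cells, and it was seen in 0 of the 108 activated *Wt* cells. Among cells outside the microglia rule that reached 2000 UMIs, thinned alike, it was seen in 1 of 251 in *Wt* (0.398%, 0.0101 to 2.20), 0 of 158 in *PLPmut* (up to 1.90% at 3 cells) and 5 of 278 in *PLPtg* (1.80%, 0.587 to 4.15). The share leaves out 751, 429 and 668 shallower cells, and over all cells outside the rule the *PLPtg* level was 5.62 CPM. In *PLPtg* the share of activated microglia lies within the interval of these cells, whereas that of non-activated microglia lies below it.

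**Figure D2:**
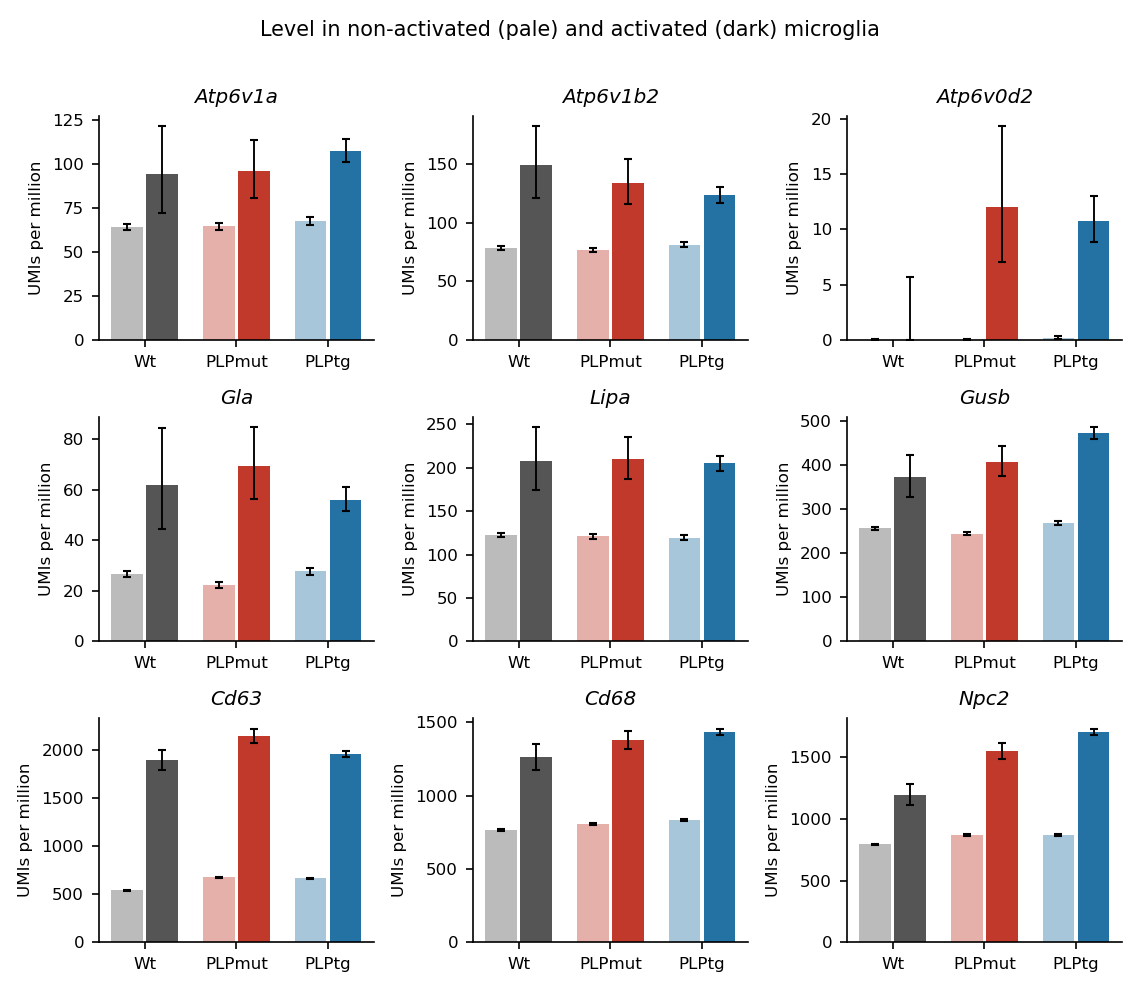
Level of 9 lysosomal genes in CPM (y axis, from 0) in non-activated (pale bars) and activated (dark bars) microglia of the 3 libraries, with exact 95% Poisson intervals. Apart from *Atp6v0d2*, every dark bar of a gene is higher than its pale ones, and *Atp6v0d2* is at 0 in activated *Wt* cells and at 10.8 to 12.1 in those of the mutants.

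Among the 17 hydrolases, 5 were higher in activated cells of all 3 libraries: *Gla*, *Lipa*, *Gusb*, *Glb1* and *Gaa*. *Gla*, α-galactosidase A, which removes terminal galactose from globosides, stood at 26.7, 22.3 and 27.8 CPM in non-activated *Wt*, *PLPmut* and *PLPtg* cells and at 62.1, 69.5 and 56.2 CPM in activated cells. Its ratios of 2.32 (1.65 to 3.18), 3.11 (2.51 to 3.82) and 2.02 (1.83 to 2.22) were the largest of the class in each library. *Lipa*, the acid lipase that frees cholesterol from its esters, stood at 122, 121 and 119 CPM and at 208, 209.9 and 205 CPM. Its ratios, 1.70, 1.73 and 1.72, were nearly equal between libraries. *Gusb*, β-glucuronidase, stood at 256, 244 and 268 CPM and at 373, 408 and 472 CPM. *Glb1*, β-galactosidase, which acts on gangliosides, stood at 61.7, 55.5 and 61.3 CPM and at 90.04, 90.8 and 106 CPM, with reads of *Tmppe*, which overlaps it on the same strand, as a possible source of miscounts. *Gaa*, which degrades glycogen, stood at 69.7, 66.7 and 70.9 CPM and at 129, 101 and 98.4 CPM. For each of these genes, every activated group stood above every non-activated group.

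*Galc*, *Hexa* and *Naglu* met the rule in 2 libraries each. *Galc*, which cleaves the myelin lipid galactosylceramide, had ratios of 1.54 (1.17 to 1.99) in *PLPmut* and 1.72 (1.56 to 1.90) in *PLPtg*, and 1.44 (0.920 to 2.15) on 24 UMIs in *Wt*. *Hexa*, which takes part in ganglioside breakdown, had a *Wt* ratio of 1.02 (0.939 to 1.11), a *PLPmut* ratio of 1.26 (1.20 to 1.32) and a *PLPtg* ratio of 1.51 (1.48 to 1.54). These intervals do not overlap, and the share of all genes for which this holds is not given. *Naglu*, of heparan sulphate breakdown, was higher in *Wt* (1.33) and *PLPtg* (1.28), with a ratio of 1.12 in *PLPmut*.

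No other hydrolase was higher by the rule in any library. *Smpd1*, acid sphingomyelinase, was lower in *PLPtg* at 36.8 against 47.8 CPM, and its ratios in *Wt* (1.13, 0.785 to 1.57) and *PLPmut* (0.873, 0.664 to 1.13) had intervals that hold 1. The sulphatases *Arsa*, which opens the breakdown of myelin sulphatide, and *Arsb* had ratios below 1 in each library (0.592, 0.888 and 0.804 for *Arsa*, and 0.837, 0.857 and 0.805 for *Arsb*) without meeting the rule. *Asah1* (acid ceramidase), *Man2b1* and *Manba* (mannosidases), *Neu1* (sialidase), *Ppt1* (a thioesterase) and *Tpp1* (a peptidase) had ratios from 0.935 to 1.2504. Of the 9 members that act on sphingolipids (*Galc*, *Arsa*, *Smpd1*, *Asah1*, *Glb1*, *Gla*, *Hexa*, *Neu1* and the saposin precursor *Psap*), 3, 5 and 4 were higher in *Wt*, *PLPmut* and *PLPtg* (11.1%, 9.94% and 11.1% of all genes) and 0, 0 and 1 lower (14.6%, 22.5% and 46.2%). *Gla*, *Glb1*, *Galc* and *Hexa*, which remove sugars, accounted for all of the higher ones apart from *Psap*, and *Smpd1* was the lower one. The sialidase *Neu1*, which also removes a sugar, was not higher by the rule in any library.

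The membrane proteins divided most sharply. *Cd63*, a tetraspanin of late endosomes, stood at 542, 675 and 666 CPM in non-activated *Wt*, *PLPmut* and *PLPtg* cells and at 1889, 2140.4 and 1954 CPM in activated cells. Its ratios of 3.49 (3.29 to 3.69), 3.17 (3.05 to 3.29) and 2.93 (2.88 to 2.98) were the largest among the tested members in each library. *Cd63* has an annotated transcribed pseudogene outside the deposited gene list, and how reads were divided between them was not tested. *Cd68*, a glycoprotein of the macrophage lysosome, stood at 766, 806 and 834 CPM and at 1261, 1380.4 and 1434 CPM. *Lamp1*, a main coat protein, stood at 1028, 1199 and 1152 CPM and at 1298, 1641 and 1506 CPM, with ratios of 1.26, 1.37 and 1.31. Its relative *Lamp2* had ratios of 0.953 (0.853 to 1.06), 1.09 (1.02 to 1.17) and 1.12 (1.09 to 1.15).

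Receptors and channels of the membrane were level or lower. In *PLPtg*, 46.2% of all genes were lower, and the log2 ratios of *Scarb2* (−0.33) and *Npc1* (−0.27) lay near the median of all genes (−0.29). *Tmem106b* (−0.46) lay under that median and *Mcoln1* (−0.07) above it. *Scarb2*, the receptor that carries β-glucocerebrosidase to the lysosome, stood at 208, 210.3 and 213 CPM in non-activated cells and at 165, 217 and 169 CPM in activated cells, lower in *Wt* (0.791, 0.647 to 0.957) and *PLPtg* (0.794, 0.754 to 0.835) and level in *PLPmut* (1.03, 0.918 to 1.16). *Npc1*, which exports cholesterol, was lower in *Wt* (0.763, 0.583 to 0.981), with ratios of 1.07 in *PLPmut* and 0.831 in *PLPtg*. With activation split at 0.2% of UMIs the *Wt* log2 ratio of *Npc1* was 0.055 in place of −0.39, so its direction there turned. *Tmem106b*, a regulator of lysosome size and transport, was lower in *PLPtg* (0.726) with ratios of 0.8998 and 0.878 in *Wt* and *PLPmut*. *Mcoln1*, a calcium channel, had ratios of 0.952, 1.21 and 0.951, each with an interval that holds 1. For *Scarb2* and *Npc1* the *PLPmut* interval lies wholly above that of *PLPtg*, as it also does for *Cd63*. The median log2 ratio of all genes was likewise higher in *PLPmut* (−0.17) than in *PLPtg* (−0.29). The share of all genes with such a gap is not given, so whether the gap is particular to these members was not tested.

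*Npc2*, the soluble protein that hands cholesterol to NPC1, was higher in all libraries, at 793, 867 and 873 CPM in non-activated *Wt*, *PLPmut* and *PLPtg* cells and 1197, 1546 and 1705 CPM in activated cells. Its ratios were 1.51 (1.40 to 1.62), 1.78 (1.71 to 1.86) and 1.95 (1.92 to 1.99), in contrast to those of its partner *Npc1*. *Psap*, the precursor of the saposins that present sphingolipids to their enzymes, was higher in *Wt* (1.35, 1.29 to 1.41) and *PLPmut* (1.40, 1.36 to 1.45), and at 2508 against 2372 CPM it had a ratio of 1.06 (1.04 to 1.07) in *PLPtg*. *Grn*, progranulin, which aids *Psap* transport and enzyme function, had ratios of 1.16 in *Wt*, 1.21 in *PLPmut* and 1.37 in *PLPtg*, and it met the rule in *PLPtg* alone.

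Across the 14 other settings tried, the short list was not equally firm. Leaving out the 10 CPM floor could not change the call of a member that had passed it. Centring on the median of all genes, TMM scaling, and totals without mitochondrial and ribosomal protein genes raised every ratio in each library. These settings could not take away a higher call either, so all of them were fixed passes for the tallies below. Equal weight for every cell asked for the fold alone, without an interval. *Cd63*, *Cd68* and *Npc2* were higher in all 3 libraries in 14 of 14 settings, *Gla*, *Lipa* and *Atp6v1b2* in 13, *Atp6v0e* in 12, *Gaa* and *Gusb* in 11, *Atp6v1a* and *Lamp1* in 10 and *Glb1* in 9. *Lamp1* and *Atp6v0e* lie close to the limit of the rule in 1 library each.

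Lysosomal genes are known to share a palindromic promoter element bound by TFEB and its relatives, so the promoters of the members that were higher together are shown. RefSeq promoters on GRCm38.p6, from 250 bases before to 50 after the start, were found for 37 of the 44 members. No entry was found for *Atp6v1b2*, *Atp6v1c1*, *Atp6v1g1*, *Atp6v1h*, *Atp6v0d2*, *Asah1* and *Npc1*. The letters TCACGTGA, GTCACGTG or CACGTGAC, which overlap one another and read both strands, occurred in 10 of the 37 (27.0%) and in 749 of 27025 genes (2.77%). They occurred in 5 of the 11 members with an entry that were higher in all 3 libraries (45.5%) and in 5 of the 26 others (19.2%). The shorter CACGTG occurred in 11 of 37 members (29.7%) and in 8.09% of all genes. The 5 promoters are printed from 250 bases before to 20 bases after the start, with the matched letters in capitals, and *Mcoln1* follows as a member with matches whose ratios held 1.
*Gla* (chrX:134600986-134601255, minus strand): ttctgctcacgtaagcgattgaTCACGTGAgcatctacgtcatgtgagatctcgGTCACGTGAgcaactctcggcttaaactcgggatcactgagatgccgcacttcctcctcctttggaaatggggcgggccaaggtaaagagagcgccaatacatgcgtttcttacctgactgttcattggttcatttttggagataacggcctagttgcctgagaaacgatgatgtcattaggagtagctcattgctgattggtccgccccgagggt
*Atp6v1a* (chr16:44139240-44139509, minus strand): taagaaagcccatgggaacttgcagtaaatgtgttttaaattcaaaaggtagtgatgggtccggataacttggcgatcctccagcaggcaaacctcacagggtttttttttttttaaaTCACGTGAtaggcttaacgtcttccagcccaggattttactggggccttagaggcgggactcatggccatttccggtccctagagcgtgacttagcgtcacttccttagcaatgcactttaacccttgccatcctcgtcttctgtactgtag
*Atp6v0e* (chr17:26676146-26676415, plus strand): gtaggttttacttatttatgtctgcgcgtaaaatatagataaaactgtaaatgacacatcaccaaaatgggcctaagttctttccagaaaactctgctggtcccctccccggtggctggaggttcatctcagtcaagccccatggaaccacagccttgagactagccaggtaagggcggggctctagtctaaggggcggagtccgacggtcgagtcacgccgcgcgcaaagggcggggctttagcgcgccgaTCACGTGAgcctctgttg
*Glb1* (chr9:114400828-114401097, plus strand): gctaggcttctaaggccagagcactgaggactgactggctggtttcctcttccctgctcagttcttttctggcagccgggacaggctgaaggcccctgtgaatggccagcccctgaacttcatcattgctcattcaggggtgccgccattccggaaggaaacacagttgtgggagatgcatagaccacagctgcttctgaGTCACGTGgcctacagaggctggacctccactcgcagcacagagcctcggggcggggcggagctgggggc
*Lamp1* (chr8:13158911-13159180, plus strand): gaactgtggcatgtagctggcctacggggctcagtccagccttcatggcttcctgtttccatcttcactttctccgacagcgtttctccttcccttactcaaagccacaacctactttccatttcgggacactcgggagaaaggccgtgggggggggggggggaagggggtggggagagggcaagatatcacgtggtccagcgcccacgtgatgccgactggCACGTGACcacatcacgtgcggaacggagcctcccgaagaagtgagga
*Mcoln1* (chr8:3500269-3500538, plus strand): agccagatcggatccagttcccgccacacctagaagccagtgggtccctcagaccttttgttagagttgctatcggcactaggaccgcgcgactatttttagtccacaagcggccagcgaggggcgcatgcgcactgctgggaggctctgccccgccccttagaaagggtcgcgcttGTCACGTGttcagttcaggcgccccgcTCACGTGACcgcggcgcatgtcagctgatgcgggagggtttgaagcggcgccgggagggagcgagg

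The *Lamp1* window holds CACGTG 4 times, once within the longer letters. Counted from the start base as 0, the first match opens at position −228 in *Gla*, −132 in *Atp6v1a* and 2 in *Atp6v0e*. The longer letters were absent from the windows of *Cd63*, *Cd68*, *Npc2*, *Lipa* and *Gusb*, which are among the members with the largest ratios, and present in those of *Arsa* and *Atp6v0b*, whose ratios lay below 1. A match is only a run of letters and was not set against any binding data.

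Beyond the 44 genes, 57 other lysosomal genes were listed, of which 47 passed the floor. In *Wt*, *PLPmut* and *PLPtg*, 10, 9 and 7 of them were higher (21.3%, 19.1% and 14.9%, against 11.1%, 9.94% and 11.1% of all genes). In the same order 9, 11 and 14 were lower (19.1%, 23.4% and 29.8%, against 14.6%, 22.5% and 46.2%). Their median log2 ratios were 0.00, 0.01 and −0.11. Among those tested, the largest median ratios belonged to *Galns*, a sulphatase of keratan sulphate breakdown (log2 1.18, 0.75 and 1.60), *Gnptab*, which makes the mannose-6-phosphate tag that routes hydrolases (0.87, 1.06 and 0.96), and *Scpep1*, a serine carboxypeptidase (0.82, 0.72 and 0.73). The smallest belonged to *Cd164*, a sialomucin (−1.09, −1.24 and −1.41), *Atp6v0a2*, a V0 subunit of the Golgi and endosomes (−0.70, −0.85 and −1.13), and *Sort1*, a sorting receptor (−0.92, −0.76 and −0.79). These 6 genes met the rule in all 3 libraries.

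The transcription factors of the family that binds the element did not move together. *Tfe3* was lower in activated cells of each library, with log2 ratios of −0.44, −0.34 and −0.58. *Tfeb* was lower in *PLPtg* (−0.50), with −0.68 on 14 UMIs in *Wt* and −0.12 in *PLPmut*. *Mitf* was higher in *Wt* (0.63) and *PLPmut* (0.34), with 0.21 in *PLPtg*. *Tfec* gave 0, 0 and 6 UMIs in activated cells and was under the floor.

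The members were also read by the strength of activation, over 6 bins of the share of UMIs taken by the 4 splitting genes. In *PLPtg*, the one library with over 20 cells in every bin, *Cd63* stood at 581, 756, 1477, 1960, 2182 and 3004 CPM from the lowest bin (none of these genes seen, 5751 cells) to the highest (at least 1% of UMIs, 145 cells). *Cd68* went from 797 to 1947 CPM, *Npc2* from 824 to 2201 CPM and *Gusb* from 258 to 566 CPM, each higher at every step. Summed over the class, the membrane proteins went from 3478 to 7692 CPM, the hydrolases from 3665 to 4910 CPM and the pump from 2620.0 to 3183 CPM. Most of the rise in the membrane sum was that of *Cd63* and *Cd68*. Between activated and non-activated *PLPtg* cells, the median log2 ratio was 0.05 for membrane proteins, 0.23 for hydrolases and 0.17 for the pump. Over the bins, *Scarb2* went down, from 216 to 148 CPM. *Atp6v0d2* went from 0.2 CPM or less in the lowest bins to 41.5 CPM in the highest. In *Wt* and *PLPmut* the upper bins held 4 to 11 cells each, and for *Cd63* their values (1745 and 4890 CPM in *Wt*, 2684 and 3629 CPM in *PLPmut*) are those of a few cells.

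**Figure D3:**
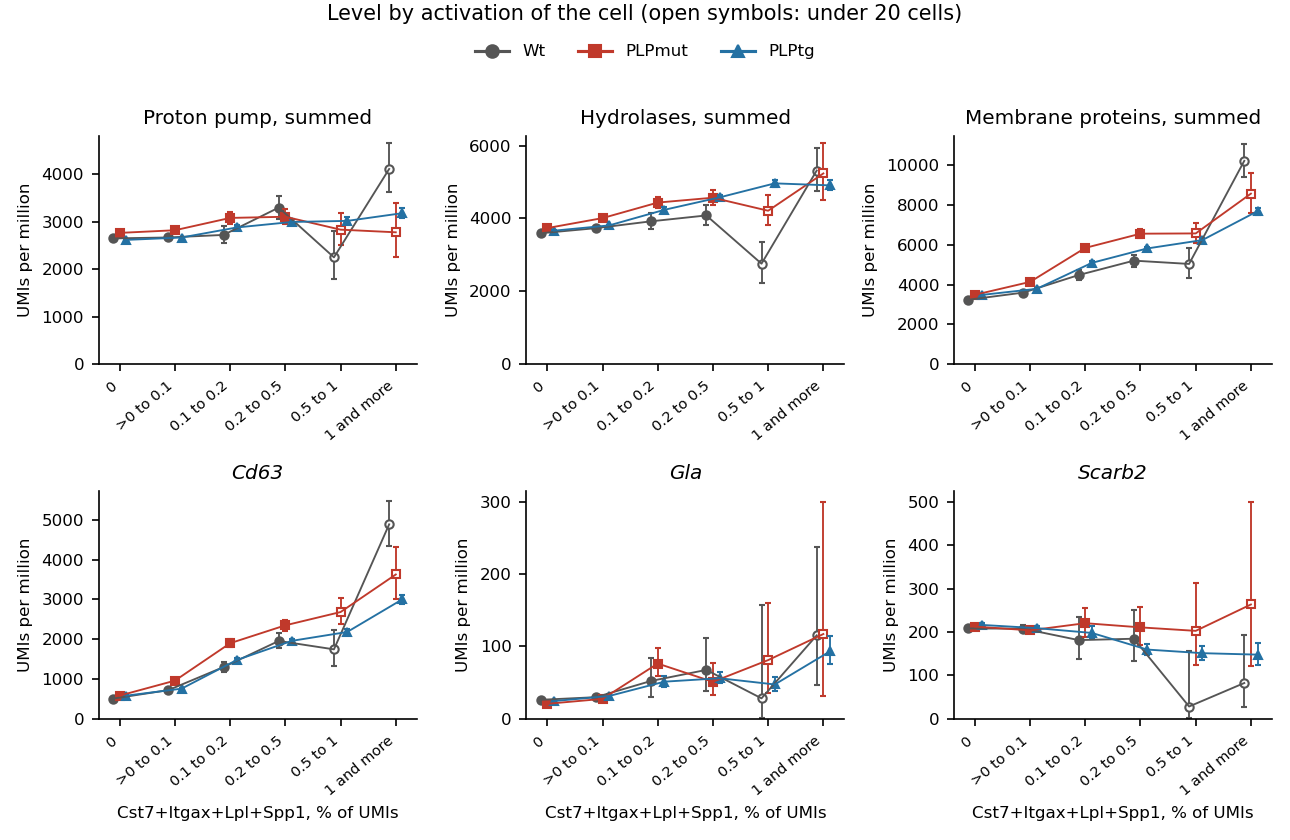
Summed level of the pump, hydrolases and membrane proteins, and level of *Cd63*, *Gla* and *Scarb2*, in CPM (y axes, from 0) over 6 bins of the share of UMIs from *Cst7*, *Itgax*, *Lpl* and *Spp1* (x axis), with exact 95% Poisson intervals. Open symbols mark bins with under 20 cells. In *PLPtg* the summed membrane proteins go from 3478 to 7692, mostly through *Cd63* and *Cd68*, and *Scarb2* goes from 216 to 148.

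Within a state, few members differed between the libraries by the rule, but in activated cells the number turned on the setting. In non-activated microglia, 0 of 43 were higher and 1 was lower in *PLPmut* than in *Wt* (1.99% and 2.47% of all tested genes), namely *Arsb* at 131 against 167 CPM (ratio 0.783, 0.762 to 0.804). In *PLPtg* against *Wt*, 0 were higher and 0 lower (3.42% and 1.23% of all genes). *Cd63* came nearest to the limit from below, at 675 and 666 CPM against 542 CPM in *Wt*, which is under 25% above it in both. These shares are near or under the background.

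In activated microglia, 5 members were higher and 0 lower in *PLPmut* than in *Wt* (3.0% and 7.32% of all genes). They were *Man2b1* (988 against 742 CPM, ratio 1.33, 1.20 to 1.48), *Scarb2* (1.32, 1.05 to 1.66), *Npc2* (1.29, 1.19 to 1.40), *Hexa* (1.27, 1.15 to 1.40) and *Lamp1* (1.26, 1.17 to 1.37). In *PLPtg* against *Wt*, 4 were higher and 2 lower (4.27% and 14.1% of all genes). *Hexa* (1294 against 900.4 CPM, 1.44, 1.32 to 1.56), *Npc2* (1.42, 1.33 to 1.53), *Grn* (1.29, 1.20 to 1.37) and *Gusb* (1.27, 1.11 to 1.45) were higher, and *Gaa* (0.764, 0.610 to 0.967) and *Smpd1* (0.678, 0.479 to 0.988) lower. Both comparisons share the *Wt* cells, of which 108 were activated, and *Hexa* and *Npc2* met the rule in both. No tested member reached 1.5-fold in either. The 5 and 6 members called became 8 and 14 with TMM scaling (which equalises the bulk of the genes) and 6 and 13 with log2 ratios centred on the median of all genes. They became 9 and 13 with activation split at 0.2% of UMIs. With every cell weighted equally they became 20 and 17, but there the fold alone was asked for, without an interval. Those 2 counts thus mix a looser rule with the weighting. Shares of all genes under these settings are not given, so these counts show only how the members moved and not whether they exceed all genes.

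When both mutants were compared directly in their activated cells, 2 members were higher and 4 lower in *PLPtg* than in *PLPmut*. These were 4.65% and 9.30% of the tested members, just under the 5.03% and 9.7% of all genes. The counts are thus no result about the members as a set. *Psap* was lower, at 2508 against 3320.2 CPM (ratio 0.755, 0.732 to 0.779), as were *Atp6v1h* at 45.7 against 70.9 CPM (0.644, 0.518 to 0.807), *Scarb2* at 169 against 217 CPM (0.778, 0.688 to 0.881) and *Npc1* at 93.8 against 119 CPM (0.787, 0.668 to 0.933). *Atp6v1f* (309.6 against 242 CPM, 1.28, 1.14 to 1.43) and *Naglu* (142 against 112 CPM, 1.26, 1.07 to 1.4997) were higher. For *Cd63*, 1954 against 2140.4 CPM, *Gla*, 56.2 against 69.5 CPM, and *Atp6v0d2*, 10.8 against 12.1 CPM, the rule was not met.

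Over all microglia together, 31 of 43 members (72.1%) had a ratio above 1 in *PLPtg* against *Wt*, compared with 34.1% of all tested genes. When cells of like activation were compared, 25 members had a ratio above 1. Activated cells were 0.862% of microglia in *Wt*, 1.79% in *PLPmut* and 15.6% in *PLPtg*. *Cd63* was 1.57-fold higher in *PLPtg* than in *Wt* (868 against 554 CPM) when all microglia were summed, and 1.10-fold (1.08 to 1.12) when cells were compared within the 6 bins of activation. For *Npc2* the ratio went from 1.26 to 1.07, for *Galc* from 1.30 to 1.16, for *Cd68* from 1.20 to 1.06, for *Gusb* from 1.17 to 1.02 and for *Gla* from 1.19 to 0.971. Genes named here for being higher in activated cells are bound to gain in the first ratio from the larger activated share, so their shift is a description only. Over all 43 members the median log2 ratio was 0.09 before and 0.03 after, and 35 lay nearer to 0 within bins. The median of all tested genes was −0.06 before. Ratios within bins were computed for the members alone, so whether the shift is particular to them was not tested. In *PLPmut* against *Wt*, *Cd63* went from 1.27 to 1.20 (1.18 to 1.22), and the median of the 43 was 0.03 both before and after. *Arsb* in *PLPmut* was unaffected, at 0.782 and 0.780.

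**Figure D4:**
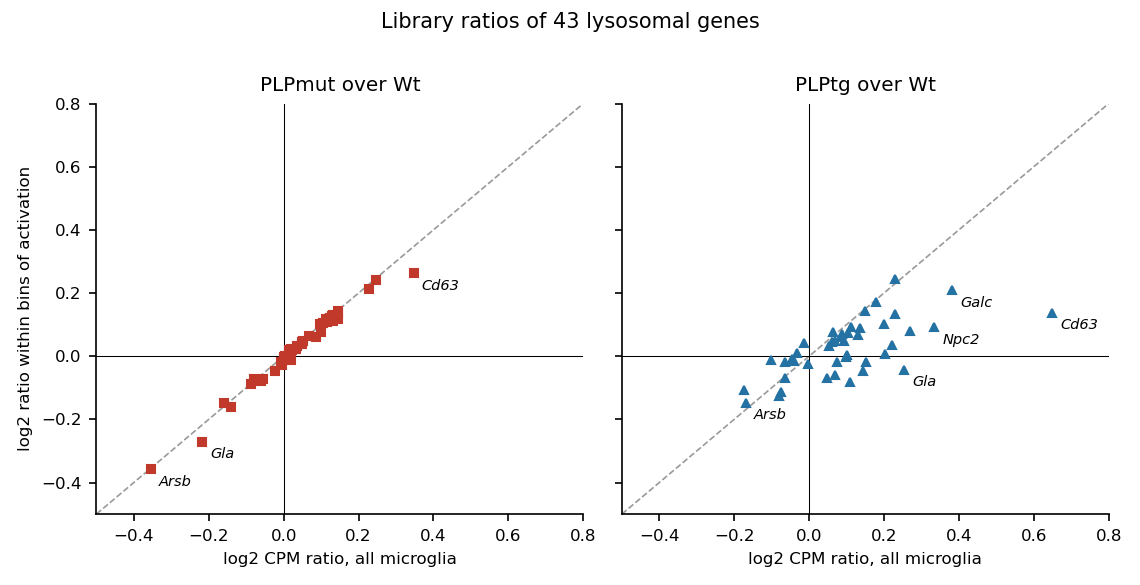
Log2 ratio of each of the 43 tested members to *Wt* over all microglia (x axis) and within bins of activation (y axis), for *PLPmut* (left) and *PLPtg* (right). The dashed line marks equality. *PLPmut* points follow the line, while in *PLPtg* 35 of 43 lie nearer to 0 on the y axis, *Cd63* farthest from the line.

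Activated microglia were last divided by how much of the homeostatic programme they kept, with a limit on the summed share of *P2ry12*, *Tmem119*, *Siglech* and *Selplg* at 0.345% of UMIs, the 5th percentile of non-activated *Wt* cells. This gave 52 low and 56 kept cells in *Wt*, 85 and 82 in *PLPmut*, and 931 and 824 in *PLPtg*. Kept cells were shallower in *PLPtg*, with a median of 1863 against 5380 UMIs, and in *Wt*, with 2860.5 against 6854.5. The low cells also carried more of the 4 splitting genes, at a median of 0.359% against 0.182% of UMIs in *PLPtg*, 0.238% against 0.157% in *Wt* and 0.216% against 0.144% in *PLPmut*, and the part of this in the differences was not tested. In *PLPtg*, 9 members were higher and 5 lower in the low cells (8.66% and 36.1% of all tested genes). *Cd63* stood at 2311 against 1476 CPM (1.57, 1.52 to 1.61), *Gla* at 66.0 against 42.9 CPM (1.54, 1.29 to 1.84), *Atp6v1f* at 355 against 248 CPM (1.43, 1.33 to 1.54), *Npc2* at 1910.1 against 1431 CPM and *Cd68* at 1603 against 1208 CPM. *Glb1*, *Atp6v1b2*, *Atp6v0e* and *Atp6v1a* were the other higher ones, at ratios of 1.26 to 1.33. *Smpd1* (0.583, 0.473 to 0.717), *Arsa* (0.612, 0.470 to 0.795), *Arsb* (0.657, 0.587 to 0.734), *Scarb2* (0.679, 0.618 to 0.747) and *Tmem106b* (0.735, 0.610 to 0.885) were lower.

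The same division gave 10 higher and 4 lower members in *Wt* (8.76% and 9.46% of all tested genes), and 7 and 5 in *PLPmut* (5.9% and 13.7%). In *PLPmut* the share of lower members was under that of all genes. The *Wt* counts are over members that include *Atp6v0c*, *Arsa*, *Manba* and *Mcoln1*, which had under 20 UMIs in this pair. Only 4736 genes were tested for the *Wt* share of all genes, so the *Wt* shares are not on like terms. *Atp6v1a* was among the higher ones in *Wt*, where its kept cells gave 11 UMIs or 38.7 CPM, under the 64.2 CPM of non-activated cells. *Cd63*, *Cd68*, *Atp6v1b2* and *Atp6v1f* were higher in the low cells of each library, and *Arsb* and *Scarb2* lower. *Lipa* was higher in *Wt* (289 against 106 CPM) and *PLPmut* (243 against 179 CPM), and *Psap* in *PLPmut* (3733 against 2932 CPM). Among cells with at least 2000 UMIs, where the *PLPtg* medians were 6807 and 8271 UMIs, the counts in *PLPtg* were again 9 and 5, with *Cd63* at a ratio of 1.52 and *Arsb* at 0.671.

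**Figure D5:**
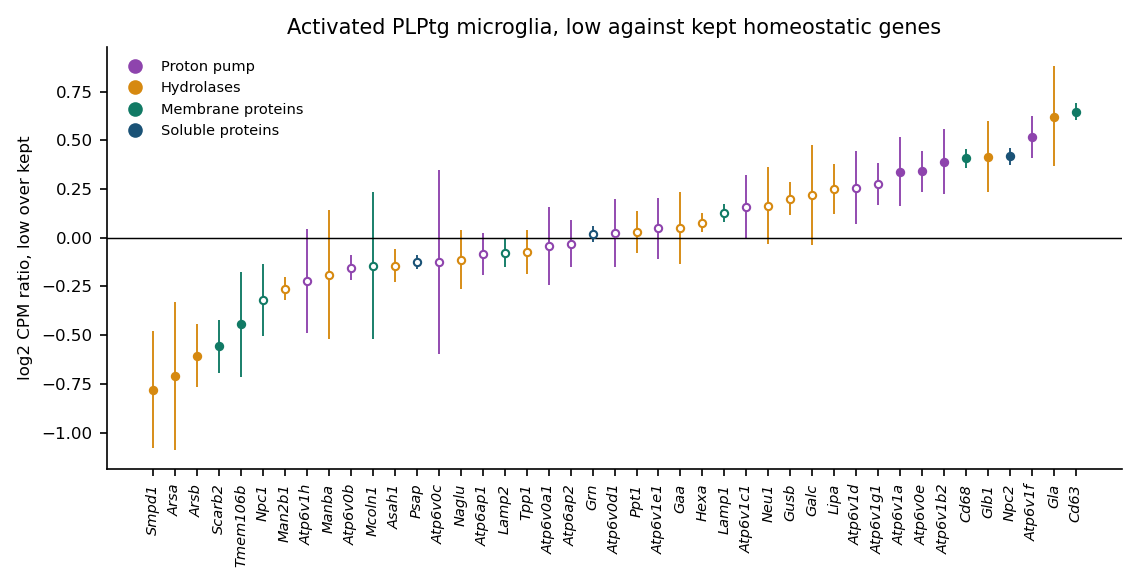
Log2 ratio of CPM in activated *PLPtg* microglia with low over kept homeostatic genes (y axis) for the 43 tested members, ordered by value and coloured by role, with 95% counting intervals. Filled points met the rule, and they lie at both ends: *Cd63* and *Gla* at the top, *Smpd1*, *Arsa* and *Arsb* at the bottom.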

How the data were processed

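The deposited matrices hold UMI counts per gene and cell barcode, made by the authors from 10x Genomics 3′ v2 libraries. The labels name Cell Ranger 2.0.2, STAR 2.5.1b, Seurat 4.0 and the mm10 build, while the matrix headers name software version 3.1.0. Which of these made the counts is not given in the sources used here. Reads had been assigned to 31053 genes, and depth was 68760898 to 77677489 UMIs per library.

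The study's limits of over 100 and under 6000 genes per cell and no more than 60% of UMIs from mitochondria left 13538 of 13556 barcodes in *Wt*, 9915 of 9955 in *PLPmut* and 12170 of 12191 in *PLPtg*, of which 33088 in all were microglia. In *Wt* and *PLPmut* this is slightly more cells than the study states. The upper gene limit is the study's own guard against doublets, and no doublet caller was run. UMIs were summed per library and state and scaled to counts per 1000000 (CPM). Levels have exact Poisson intervals and ratios exact conditional 95% intervals; those within bins are Mantel-Haenszel ratios with a large-sample interval. A count of 0 was taken to allow 3 UMIs. Shares of cells were taken at 2000 UMIs per cell, with Clopper-Pearson intervals. With 1 library per genotype no test was made. The targeted gene is not reported here. The counting rule was tried on simulated counts first.

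All 44 members were named, together with the 3 largest and 3 smallest median ratios among the other lysosomal genes that passed the floor, and the transcription factors. The members and lists were chosen with earlier results of these data known. Gene overlaps and pseudogenes were read from GENCODE M21 (GRCm38), which matched 44 members, and promoters from RefSeq (GRCm38.p6). Python 3.11.15, numpy 2.4.6, scipy 1.17.1, pandas 2.3.3 and, for TMM factors, edgeR 4.0.16 were used. Alternatives were other cell rules, splits, depths, totals and scalings. The comparison of low and kept homeostatic genes in cells of at least 2000 UMIs was added after seeing the data.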

Additional observations from a re-analysis of the deposited data

How the results depend on the processing

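Counts of members moved with the fold limit, the scaling and the activation split. They also moved with every cell weighted equally, where the rule was looser as well. Values are given for activated against non-activated cells first (*Wt* 15 higher and 2 lower, *PLPmut* 17 and 0, *PLPtg* 18 and 3), then for the members called between libraries (*PLPmut* against *Wt* 1 in non-activated and 5 in activated cells, *PLPtg* against *Wt* 0 and 6, *PLPtg* against *PLPmut* 6 in activated cells), and last for the median log2 ratio of a class, as the mean of the 3 libraries (pump 0.20, hydrolases 0.22, membrane proteins 0.06, soluble proteins 0.46). Counts and medians not mentioned stayed within 1.5 times or within their spread. The shares of all genes also change with the setting and are not given, so the counts below show only how the members moved.

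At 1.5-fold, 8 members were higher and 0 lower in *Wt*, 10 higher in *PLPmut* and 0 lower in *PLPtg*; between libraries 0 and 0 were called for *PLPmut* against *Wt*, 0 for activated *PLPtg* against *Wt* and 1 for *PLPtg* against *PLPmut*. Centred on the median of all genes, 0 were lower in *Wt*, 30 higher and 0 lower in *PLPtg*, 13 differed for activated *PLPtg* against *Wt*, and the medians were 0.38, 0.40, 0.24 and 0.64. With TMM scaling, which moved the *PLPtg* median of all genes from −0.29 to −0.07, 0 were lower in *PLPtg*, 8 and 14 differed from *Wt* in activated *PLPmut* and *PLPtg*, and the pump, hydrolase and soluble medians were 0.30, 0.32 and 0.57. Without mitochondrial and ribosomal protein genes in the total, 0 were lower in *Wt* and 1 in *PLPtg*, 2 were called for non-activated *PLPmut* against *Wt*, and the same medians were 0.26, 0.28 and 0.53. With every cell weighted equally, 6 were lower in *Wt* and 1 in *PLPmut*, and the counts between libraries were 3, 20, 2, 17 and 11. These counts asked for the fold alone, without an interval or the floor of 20 UMIs, so they mix a looser rule with the weighting. The pump and soluble medians were 0.15 and 0.40 in that setting.

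With the split at 0.2% of UMIs, 1 was lower in *PLPmut* and 8 in *PLPtg*, the counts against *Wt* were 2, 9, 1 and 13, the hydrolase and soluble medians were 0.31 and 0.49, and *Npc1* in *Wt* turned to a log2 ratio of 0.055 from −0.39. Without *Spp1* in the split, 6 were lower in *PLPtg*, and 2 and 1 were called in non-activated *PLPmut* and *PLPtg*. With microglia at 3% of UMIs, 0 were lower in *Wt*, the pump and soluble medians were 0.13 and 0.54, and *Atp6v1a* in *Wt* turned to −0.011 from 0.56. Thinned to 2000 UMIs, 9 were higher and 1 lower in *Wt*, 1 was called in non-activated *PLPtg*, and the pump median was 0.29. Cells of at least 2000 UMIs gave 5 lower in *PLPtg*, as did leaving out cells with other immune markers, which also gave 2 in non-activated *PLPmut*. The stricter cell filter gave 1 lower in *Wt*, and leaving out the deepest 5% of cells gave 8 in activated *PLPmut*. The causes were not tested.

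Between genotypes no paired analysis was possible because each genotype has 1 library, and no replicate can be left out. The contrast of activated with non-activated cells was made inside each library. Only 108 activated *Wt* cells limit every comparison with activated *Wt*.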
